A study of Mus musculus with 6 samples.

Results

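The MHC class II presentation genes described here are 10 genes of the mouse antigen presentation machinery: H2-Aa, H2-Ab1, H2-Eb1, H2-Eb2, Cd74, H2-DMa, H2-DMb1, H2-DMb2, H2-Oa and Ciita. They were chosen by symbol from a table of 52550 genes, all 10 had a row in it, and all 10 were among the 18849 genes that passed the filter on low counts. The symbols were selected on the log2 folds and calls of the comparison between the groups, which were already known. Their differences between the groups are therefore given as a description, and nothing is supported with them.

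RNA was sequenced from lung epithelial cells sorted for alveolar type II (AT2) cells, which make surfactant in the alveolus. They had been sorted magnetically from dispase-digested lungs of C57BL/6 mice as EPCAM-positive, CD45-negative cells. The 3 libraries labelled knockout carry the genotype Sftpc+/creERT2; Grp78f/f with Tmx, and the 3 control libraries the same genotype without Tmx (tamoxifen), so that all 6 libraries share the Cre recombinase at one Sftpc allele and the floxed Grp78 alleles. Sftpc is the surfactant protein C gene, so the Cre is driven from a promoter of AT2 cells. The day label gives 10 days after a tamoxifen injection for all 6 samples, controls included, so whether the controls received tamoxifen is unclear from the labels, and a difference between the groups cannot be told apart from an effect of tamoxifen if they did not. Age is not given in the labels, and nothing in them says that replicates came from separate animals, so p-values measure only the spread between these libraries, which may be technical.

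Library totals ran from 110770711 to 149520306 counts. Hspa5 encodes Grp78, a chaperone that folds proteins in the endoplasmic reticulum. It was at 9262, 9180 and 3809 CPM (counts scaled to a common library size with TMM factors) in libraries 1, 2 and 3 labelled knockout, against 1355, 1288 and 925 CPM in controls 1, 2 and 3. The targeted gene thus had more RNA where the label names its loss, and a count per gene cannot show whether the floxed exons were removed. All directions below are between libraries as labelled. The 13 AT2 markers summed to 53116 to 69810 CPM in libraries labelled knockout and to 143127 to 166824 CPM in controls, and Sftpc ranked 2 per length of exon in all 6 libraries. The 40 leukocyte markers of the table summed to 51.6, 52.7 and 364 CPM in libraries 1, 2 and 3 labelled knockout, against 51.2, 47.2 and 68.4 CPM in controls 1, 2 and 3. Library 3 labelled knockout therefore stands apart.

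MHC class II molecules are pairs of an alpha and a beta chain that carry peptides from the endosomes to the cell surface for inspection by CD4 T cells. They are built in the endoplasmic reticulum around the invariant chain, a chaperone that fills the groove and steers the complex to endosomes, where proteases trim it to a short fragment. The H2-DM protein then exchanges that fragment for a peptide, and the H2-O protein restrains H2-DM. The coactivator CIITA switches these genes on together. It binds no DNA itself but docks on RFX, CREB and NF-Y factors seated on conserved X and Y boxes of the class II promoters. Class II is best known from dendritic cells, B cells and macrophages, and AT2 cells are among the few epithelial cells that carry it in healthy lung.

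The X and Y boxes are shown for the members whose levels are set against each other below: the alpha chain gene H2-Aa, the strongly and weakly expressed beta chain genes H2-Eb1 and H2-Eb2, and H2-DMb2, a weakly expressed H2-DM gene. RefSeq windows of 250 bases before to 50 after the transcript start (build GRCm38.p6) were found for 7 of the 10 members. Each stretch ends before the start and is written 5′ to 3′ on the gene's strand. Capitals mark the Y box, CCAAT (here read from the other strand as ATTGG), and, where there is one, the X box core. The X box search used the 11 letters in capitals in H2-Eb1, with any base allowed at the third, the fourth and the seventh, and the motifs do not overlap there.
H2-Aa: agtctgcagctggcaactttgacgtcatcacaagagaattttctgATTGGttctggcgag
H2-Eb1: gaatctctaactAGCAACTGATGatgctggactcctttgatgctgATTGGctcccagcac
H2-Eb2: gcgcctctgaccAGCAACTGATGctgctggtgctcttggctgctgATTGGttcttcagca
H2-DMb2: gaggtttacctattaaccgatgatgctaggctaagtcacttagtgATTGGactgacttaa
These lie at chr17:34287857-34287916 (minus strand), chr17:34305763-34305822, chr17:34325530-34325589 and chr17:34145114-34145173 (plus strand), in that order. The H2-DMb2 stretch lies inside the GENCODE gene, outside its exons. In H2-Eb1 and H2-Eb2 the X and Y boxes were 22 bases apart, and the same 11 X-box letters stood in both. Searched on both strands, a Y box was found in windows of all 7 members and an X box in 4 of them, H2-Eb1, H2-Eb2, H2-DMb1 and H2-Oa. Among all 32851 windows of this length in the RefSeq table, 37.4% held a Y box, 0.968% an X box of these letters and 0.387% both. A match is a description of letters and not of a bound site. In the H2-Aa and H2-DMb2 windows no match says only that these letters are not there.

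The chains of the class II molecules themselves were lower in the libraries labelled knockout. H2-Aa (chromosome 17, 34282744 to 34287823, minus strand, mm10), the alpha chain of the I-A molecule, was at 165, 162 and 282 CPM in libraries 1, 2 and 3 labelled knockout, against 782, 695 and 675 CPM in controls 1, 2 and 3. The groups did not overlap, and library 3 labelled knockout was the highest of its group. The fitted log2 fold was -1.82 (SE 0.229), a level 3.53-fold lower. H2-Ab1 (chromosome 17, 34257689 to 34269419, plus strand), the beta chain that pairs with it, was at 143, 134 and 239.5 CPM in libraries labelled knockout, against 713, 637 and 666 CPM in controls. All 3 controls lay above all 3 libraries labelled knockout. The log2 fold of H2-Ab1 was -1.96 (SE 0.228), or 3.90-fold lower.

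H2-Eb1 (chromosome 17, 34305867 to 34316674, plus strand) encodes the beta chain of I-E. It was at 87.8, 85.8 and 142 CPM in libraries labelled knockout, against 373, 336 and 345 CPM in controls. Again the groups did not overlap, with a log2 fold of -1.74 (SE 0.204). C57BL/6 mice carry a disabled alpha chain gene for I-E and assemble no I-E molecule. The table's row for that gene, H2-Ea-ps, held 0 counts in all 3 libraries labelled knockout and 6, 0 and 0 counts in controls 1, 2 and 3. A count of 0 allows levels up to 3 counts, which is 0.0213 to 0.0263 CPM in these libraries.

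H2-Eb2 (chromosome 17, 34325665 to 34341412, plus strand), a second beta chain gene of the E type, lay far below H2-Eb1. It had 36, 14 and 77 counts, or 0.265, 0.118 and 0.546 CPM, in libraries labelled knockout, against 152, 199 and 152 counts, or 1.33, 1.47 and 1.16 CPM, in controls. The groups did not overlap, and its log2 fold of -2.09 had the widest SE of the chain genes, 0.497. Its call ended without library 1 labelled knockout (edgeR adjusted p = 0.0554) and without control 2 (edgeR adjusted p = 0.0547).

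**Figure D1:**
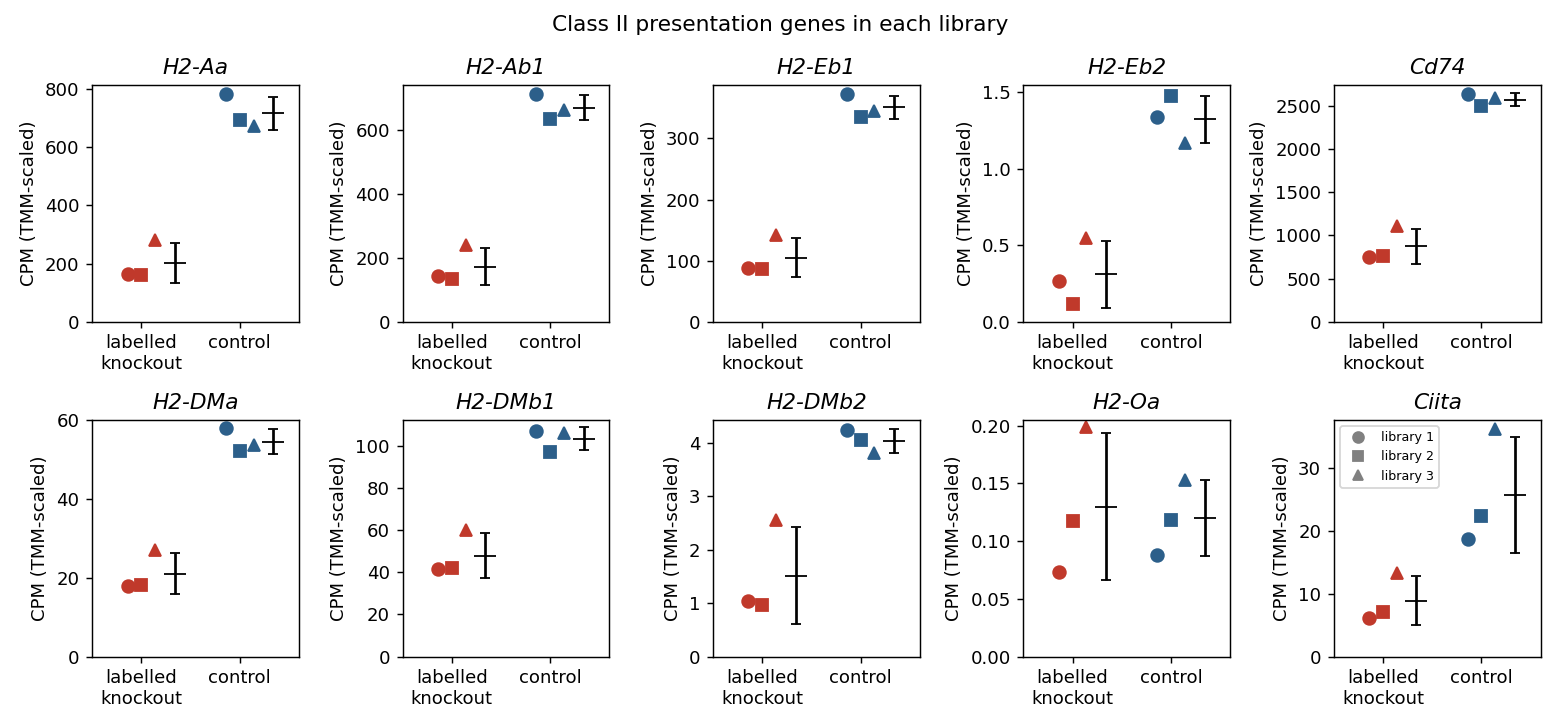
CPM scaled by TMM for each of the 10 class II presentation genes, libraries labelled knockout at the left and controls at the right of each panel, with the marker shape giving the library number and the black bar the mean ± SD of 3 libraries. In 9 panels the libraries labelled knockout all lie below the controls, and in H2-Oa the groups overlap.

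The invariant chain and the exchange factors followed the chains with smaller differences. Cd74 (chromosome 18, 60803848 to 60812652, plus strand), the invariant chain, was the most abundant member. It was at 753, 764 and 1110.3 CPM in libraries labelled knockout, against 2632, 2493 and 2589.7 CPM in controls, with no overlap. The controls lay close together and library 3 labelled knockout lay above the other two of its group. The log2 fold was -1.55 (SE 0.182), or 2.94-fold lower.

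H2-DMa (chromosome 17, 34119541 to 34139101, plus strand), the alpha chain of the peptide exchanger H2-DM, was at 18.0, 18.2 and 27.0 CPM in libraries labelled knockout, against 58.0, 52.1 and 53.5 CPM in controls. The groups did not overlap, and library 3 labelled knockout was the closest to the controls, with a log2 fold of -1.37 (SE 0.165). H2-DMb1 (chromosome 17, 34153072 to 34160230, plus strand), a beta chain of H2-DM, was at 41.7, 42.1 and 60.1 CPM in libraries labelled knockout, against 107, 97.3 and 106 CPM in controls. No library labelled knockout reached a control. H2-DMb1 had the smallest difference of the 9 lower members, a log2 fold of -1.11 (SE 0.152), or 2.16-fold lower.

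H2-DMb2 (chromosome 17, 34143307 to 34151555, plus strand), the other H2-DM beta chain gene, was at 1.04, 0.958 and 2.56 CPM in libraries labelled knockout, against 4.25, 4.06 and 3.81 CPM in controls. The groups did not overlap, and the log2 fold was -1.41 (SE 0.372). Library 3 labelled knockout was 2.56 times the mean of libraries 1 and 2. The call ended when control 1 or 2 was left out (edgeR adjusted p = 0.058 and 0.0657), and when 1 of libraries 1 and 2 labelled knockout was (edgeR adjusted p = 0.0702 and 0.0698). In the GENCODE transcripts 25.9% of the 50-base words of H2-DMb2 and 22.7% of those of H2-DMb1 were shared with another gene, most often each other, so reads of the shared stretches could be assigned to either. Of the 50-base words of H2-Oa, 15.5% were shared, mostly with BC051537. H2-DMa overlaps the neighbouring gene Brd2, and 8.43% of its 50-base words were shared. Of H2-Ab1, H2-Eb1, H2-Eb2 and Cd74 none were shared.

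H2-Oa (chromosome 17, 34092340 to 34095234, plus strand), the alpha chain of the H2-DM inhibitor H2-O, was the only member not called lower, and its shared words add to the uncertainty of its few counts. It had 10, 14 and 28 counts in libraries labelled knockout and 10, 16 and 20 in controls. That is 0.130 ± 0.0633 CPM in libraries labelled knockout and 0.120 ± 0.0327 CPM in controls (SD, n = 3 each), with overlapping groups and a log2 fold of 0.12 (SE 0.494). With so few counts, even a difference well beyond that SE could go uncalled at this depth. The missing call of H2-Oa therefore does not show that it was unchanged. The direction of H2-Oa turned without control 1 (-0.07), without library 3 labelled knockout (-0.33) and without both libraries numbered 3 (-0.12). H2-Ob, its beta chain partner and no member of the list, was at 1.88, 1.36 and 2.47 CPM in libraries labelled knockout, against 1.53, 1.42 and 1.21 CPM in controls, and was not called (log2 fold 0.46, SE 0.257, edgeR adjusted p = 0.193).

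Ciita (chromosome 16, 10480059 to 10528418, plus strand), the coactivator, was at 6.18, 7.13 and 13.3 CPM in libraries labelled knockout, against 18.7, 22.3 and 36.1 CPM in controls. The groups did not overlap, and within each group the library numbered 3 was the highest. The log2 fold was -1.53 (SE 0.355), close to that of Cd74 and smaller than those of H2-Ab1 and H2-Aa. Its call ended when library 1 or 2 labelled knockout was left out (edgeR adjusted p = 0.06 and 0.0606). Means were 8.87 ± 3.88 CPM in libraries labelled knockout and 25.7 ± 9.18 CPM in controls (SD, n = 3 each). Control 3, the highest control for Ciita, was the lowest for H2-Aa, H2-Eb2 and H2-DMb2.

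Over the 10 members, 9 were called lower and none higher by edgeR at an adjusted p under 0.05, where 36.8% of all genes tested were called, 18.8% lower and 18% higher. A call with a level at least 2-fold lower was made for 4.49% of genes tested. Since the symbols were chosen with this comparison known, nothing is read from that count. The groups of 9 members did not overlap, all lower in the libraries labelled knockout, where 26.6% of genes tested did the same and 25% were higher without overlap. The median log2 fold of the members was -1.54, and that of all genes tested 0.02. The largest differences lay among the 4 chain genes and the smallest among the H2-DM genes and H2-Oa. Leaving out library 3 labelled knockout, or both libraries numbered 3, left 9 members called lower, and leaving out library 1 labelled knockout left 6.

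**Figure D2:**
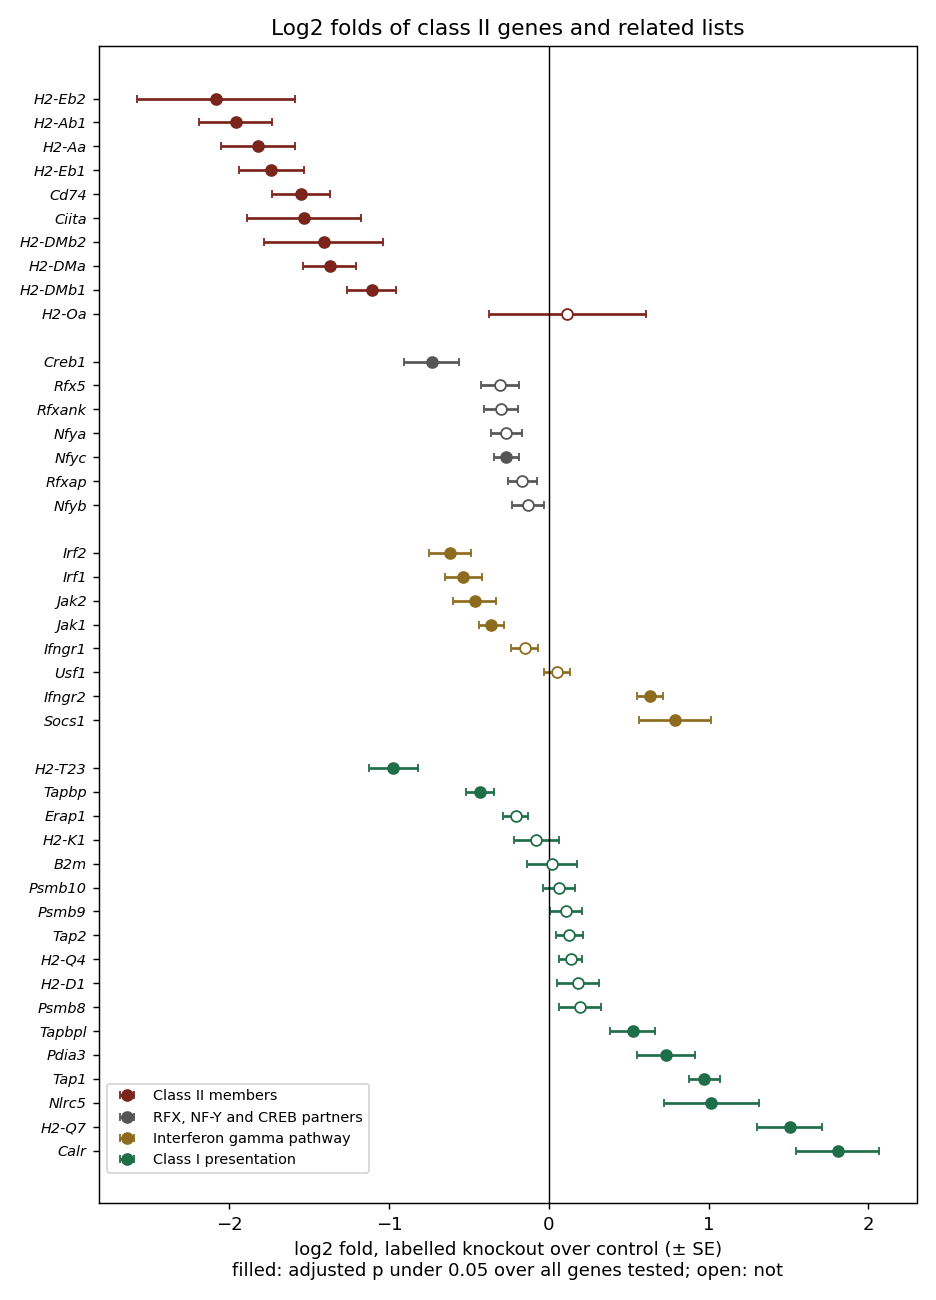
Log2 fold of the libraries labelled knockout over controls (horizontal axis, point with SE bar, n = 3 libraries each) for the class II members and genes of 3 related lists. Filled points passed an edgeR adjusted p of 0.05 over all genes tested, and 9 class II members lie between -2.09 and -1.11 while most class I genes lie around or above 0.

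Compared per length of exon, where levels of different genes can be set side by side, Cd74 stood well above the rest. Its level in counts per kilobase of exon was 1329 ± 385 in libraries labelled knockout and 3065 ± 396 in controls (SD, n = 3 each). These levels were scaled to the same sum in every library over the 48018 genes with an exon length. Unlike the CPM, they carry no TMM factors, so folds by the 2 measures differ. By the per-length measure Cd74 ranked 104, 95 and 52 among those 48018 genes in libraries 1, 2 and 3 labelled knockout. In controls 1, 2 and 3 it ranked 32, 31 and 28. In controls the order of levels then ran H2-Ab1 at 523 ± 60.03, H2-Aa at 376 ± 26.4 and H2-Eb1 at 360 ± 38.6, of which H2-Aa and H2-Eb1 overlapped. H2-DMb1 followed at 123 ± 17.9 and H2-DMa at 31.6 ± 3.36. Ciita at 5.56 ± 2.72 and H2-DMb2 at 4.61 ± 0.336 overlapped. H2-Eb2 and H2-Oa closed the order, at under 1 unit each.

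In the libraries labelled knockout the order among the leading members was the same from Cd74 down to H2-DMa, except that H2-Ab1, H2-Eb1 and H2-Aa overlapped, at 172 ± 67.8, 138 ± 49.9 and 137 ± 53.9 (SD, n = 3). The members' proportions shifted within libraries. The level of Cd74 per length was 8.03, 8.69 and 7.09 times that of H2-Ab1 in libraries labelled knockout, against 5.65, 5.98 and 5.95 times in controls. H2-DMb1 stood at 0.444, 0.478 and 0.383 of the H2-Ab1 level in libraries labelled knockout, against 0.230, 0.233 and 0.243 in controls. The groups did not overlap in either ratio, so H2-Ab1 had the lower share relative to these chaperone and exchanger genes. Its share was also lower, by less, relative to the other chain genes H2-Aa and H2-Eb1.

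The alpha to beta balance moved less. H2-Aa per length was 0.796 ± 0.0170 of H2-Ab1 in libraries labelled knockout and 0.721 ± 0.0312 in controls (SD, n = 3 each), without overlap. H2-Eb1 over H2-Ab1 did not overlap either, at 0.811 ± 0.0300 in libraries labelled knockout and 0.690 ± 0.00554 in controls. H2-DMb1 over H2-DMa was 4.68 ± 0.0995 in libraries labelled knockout and 3.90 ± 0.146 in controls. Ciita over H2-Ab1 overlapped between the groups, at 0.0136 ± 0.00178 in libraries labelled knockout and 0.0104 ± 0.00385 in controls. Ratios do not depend on the scaling between libraries, and they show unequal differences among members, never that 1 of them was constant.

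**Figure D3:**
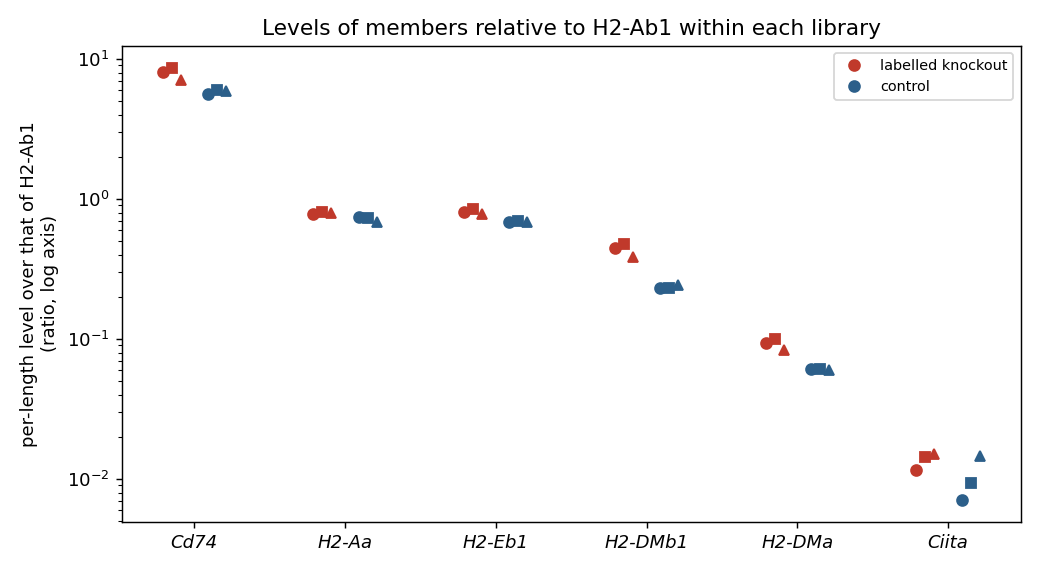
Level per length of exon of 6 members divided by that of H2-Ab1 in the same library (vertical log axis), libraries labelled knockout left of controls, 1 point per library with the shape giving its number. Cd74, H2-DMb1, H2-DMa and, by less, H2-Aa and H2-Eb1 lie higher relative to H2-Ab1 in all 3 libraries labelled knockout, and Ciita overlaps.

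Summed over the 10 members, the class II level was 1217, 1214 and 1877 CPM in libraries 1, 2 and 3 labelled knockout, against 4689, 4338 and 4476 CPM in controls 1, 2 and 3. The mean was 3.13-fold lower in the libraries labelled knockout, and 3.44-fold lower without Cd74. In shares of all counts, unscaled, this was 0.129%, 0.130% and 0.215% in libraries labelled knockout and 0.407%, 0.393% and 0.436% in controls. In bulk samples of this kind, fewer cells of a type and less RNA per cell cannot be told apart.

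Library 3 labelled knockout was the highest of its group for all 10 members, at 1.44 (H2-DMb1) to 2.85 (H2-Eb2) times the mean of libraries 1 and 2. It also had the lowest Hspa5 level of its group, the highest leukocyte marker sum and the highest AT2 marker sum. The AT2 sums were 55119, 53116 and 69810 CPM in libraries 1, 2 and 3 labelled knockout. Both AT2 cells and some leukocytes carry class II. The 14 macrophage markers named for this check gave 12 rows in the table, which summed to 24.7, 24.0 and 255 CPM in libraries 1, 2 and 3 labelled knockout, against 18.9, 17.9 and 27.4 CPM in controls 1, 2 and 3. The 10 dendritic cell markers summed to 9.20, 10.0 and 14.9 CPM in libraries labelled knockout, against 7.29, 8.48 and 8.95 CPM in controls. Of these, Zbtb46 was at 7.25, 7.55 and 5.50 CPM in libraries labelled knockout, against 5.19, 6.45 and 5.96 CPM in controls. Itgax was at 0.287, 0.504 and 6.29 CPM in libraries labelled knockout, against 0.140, 0.192 and 0.597 CPM in controls. The 8 B cell markers summed to 10.2, 10.6 and 24.1 CPM in libraries labelled knockout, against 16.5, 14.6 and 18.6 CPM in controls.

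Ptprc, which encodes CD45, was at 0.963, 1.29 and 10.99 CPM in libraries labelled knockout, against 1.38, 1.05 and 2.07 CPM in controls. Of the 40 leukocyte markers none was at 0 in library 3 labelled knockout and at most 1 was at 0 in any other library (Cd3e in library 2 labelled knockout, Marco in control 1 and Fcgr1 in control 2). The macrophage receptor gene Mrc1 was at 3.14, 3.60 and 20 CPM in libraries 1, 2 and 3 labelled knockout, against 1.35, 1.26 and 1.91 CPM in controls. The complement gene C1qc was at 0.272, 0.252 and 12.1 CPM in libraries labelled knockout, against 0.0526, 0.103 and 0.107 CPM in controls. Both lay mainly in library 3 labelled knockout.

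Of the 34 leukocyte markers tested, these 2 were called higher in the libraries labelled knockout and none lower. The shares over all genes tested were 18% higher and 18.8% lower. The median log2 fold over the markers was 1.19. The log2 fold of Mrc1 was 2.56 (SE 0.740), and 1.16 (SE 0.220) without library 3 labelled knockout. That of C1qc was 5.55 (SE 1.70), and 1.56 (SE 0.468) without that library. Without it the median over 35 tested markers was -0.11, and 2 markers, Cd79b and Csf1r, were called lower (log2 fold -0.78 and -0.76). Without both libraries numbered 3 the median over 30 markers was 0.16, with 6 called higher and 3 lower. Leaving out any 1 control ended the calls of Mrc1 and C1qc (edgeR adjusted p = 0.0688 to 0.121). With a block for the replicate number 5 markers were called higher (Mrc1, C1qa, Chil3, Itgax and Cd79a) and 2 lower (Cd79b and Mertk), the median was 0.75, and C1qc was not called (edgeR adjusted p = 0.0533).

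The class II sum was 23.6, 23.1 and 5.15 times the leukocyte marker sum in libraries labelled knockout, against 91.7, 92.0 and 65.4 times in controls. In libraries 1 and 2 labelled knockout, where the leukocyte sum was within the range of the controls, the members that were lower stood at 14.5% (H2-Eb2) to 40.5% (H2-DMb1) of their control means. In library 3 labelled knockout they stood at 35.6% (H2-Ab1) to 63.3% (H2-DMb2). The parts of leukocyte RNA and of AT2 RNA in the levels of library 3 labelled knockout were not tested.

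**Figure D4:**
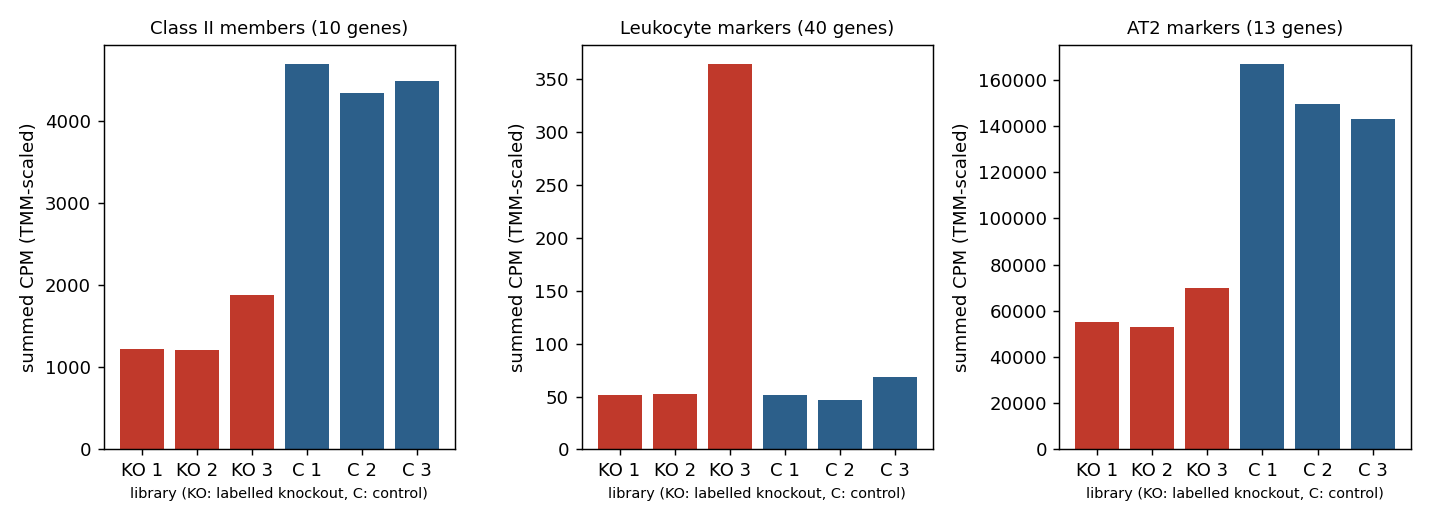
Summed CPM scaled by TMM of the 10 class II members, the 40 leukocyte markers and the 13 AT2 markers in each library, labelled knockout (KO) left of control (C), each panel with its own axis from 0. The class II and AT2 sums are lower in all 3 libraries labelled knockout, and the leukocyte sum is highest in library 3 labelled knockout, at 364 CPM.

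AT2 markers moved the same way. All 13 were called lower in the libraries labelled knockout, where 18.8% of all genes tested were. Their median log2 fold was -1.23, and 12 or 13 were called with 1 library or both libraries numbered 3 left out. Cebpa, a transcription factor gene of alveolar cells, fell by 1.20 on the log2 scale (SE 0.113, edgeR adjusted p = 0.00068), and Etv5, another transcription factor gene, by 1.56 (SE 0.201). Sftpc, the surfactant protein C gene, and Abca3, a lipid transporter gene of lamellar bodies, were called lower too. The epithelial markers Epcam and Cdh1 fell by 0.33 (SE 0.0901) and 0.44 (SE 0.115). The class II sum was 2.21%, 2.29% and 2.69% of the AT2 marker sum in libraries labelled knockout, against 2.81%, 2.90% and 3.13% in controls. The part of a smaller share of AT2 RNA in the class II difference was not tested.

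Of the members, 8 lie among other genes in a stretch of chromosome 17 that runs from H2-Oa to H2-Eb2 (34092340 to 34341412). The stretch holds 16 tested genes, 8 of them members and 8 others. Of the members there 7 were called lower, and of the others none was called lower and 1 higher by edgeR. Over all genes tested, 18.8% were called lower and 18% higher. Since the members were chosen with this comparison known, nothing is read from the contrast. Among the others, Gm20513 had a log2 fold of -2.40 (SE 0.836) and was not called (edgeR adjusted p = 0.0565). It was at 0.163 CPM or less in every library. Tap1, a subunit of the transporter that loads class I molecules, sits between H2-DMb1 and H2-Ab1. It was at 54.4, 50.03 and 45.3 CPM in libraries labelled knockout, against 25.9, 24.0 and 26.3 CPM in controls (log2 fold 0.97, SE 0.0965, edgeR adjusted p = 0.000763). Psmb8 and Psmb9, subunits of the immunoproteasome, had log2 folds of 0.20 and 0.11 and were not called, nor was Tap2, the partner of Tap1, at 0.13. Brd2, a chromatin reader gene next to H2-DMa, was not called either, at -0.29 (SE 0.107, edgeR adjusted p = 0.0673). BC051142, a further gene of the class II region, was not called, at 0.67 on the log2 scale (edgeR adjusted p = 0.0627).

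**Figure D5:**
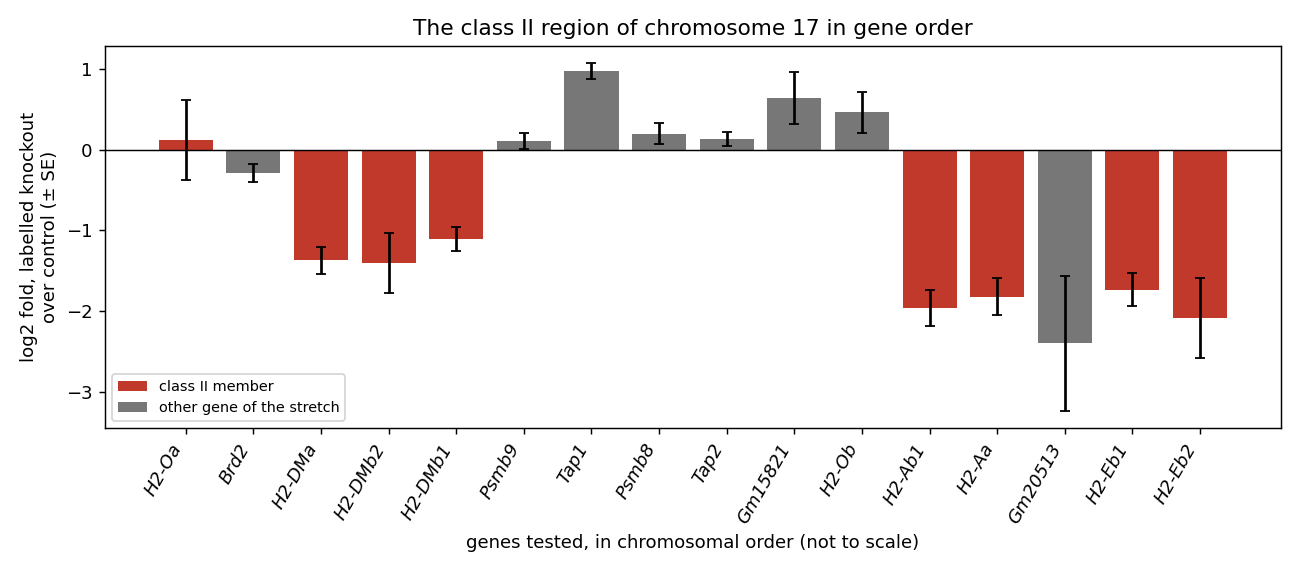
Log2 fold of the libraries labelled knockout over controls (vertical axis, bars with SE, n = 3 libraries each) for the 16 tested genes of the class II region in chromosomal order, members in red. The bars below -1 are members, except Gm20513, which had at most 0.163 CPM in any library.

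The DNA-binding partners of CIITA all had log2 folds below 0 in the main fit, smaller in size than those of the members called lower. Over all genes tested, 18.8% were called lower and 18% higher. Of the 7 genes for RFX, NF-Y and CREB subunits, 2 were called lower and none higher, with a median log2 fold of -0.27. Creb1, a CREB factor gene, fell by 0.73 (SE 0.174, edgeR adjusted p = 0.0152), with 24.4, 27.1 and 39.6 CPM in libraries labelled knockout against 49.6, 52.1 and 49.8 CPM in controls. Nfyc, an NF-Y subunit gene, fell by 0.27 (SE 0.0793, edgeR adjusted p = 0.0342). Rfx5, Rfxank and Rfxap, the RFX subunit genes, had log2 folds of -0.31, -0.30 and -0.17 and were not called (edgeR adjusted p = 0.0841, 0.0621 and 0.179), nor were Nfya and Nfyb at -0.27 and -0.13. With the replicate number as a block 4 partners were called lower. With library-size scaling 0 were, and Rfxap and Nfyb turned to 0.09 and 0.13. Leaving out control 1 or 2, or library 1 or 2 labelled knockout, ended the call of Nfyc (edgeR adjusted p = 0.0761 to 0.135). The call of Creb1 ended when control 2 or library 2 labelled knockout was left out (edgeR adjusted p = 0.0526 to 0.0619).

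Genes of the interferon gamma route, which induces Ciita in many cells, went both ways. Of 10 genes 9 were tested, 4 called lower and 2 higher, where 18.8% of all genes tested were called lower and 18% higher. Their median log2 fold was -0.15. The transcription factor genes Irf2 and Irf1 fell by 0.62 (SE 0.129) and 0.54 (SE 0.118), and the kinase genes Jak2 and Jak1 by 0.47 (SE 0.133) and 0.36 (SE 0.0785). The receptor chain gene Ifngr2 rose by 0.63 (SE 0.0816), and Socs1, a feedback inhibitor of the kinases, by 0.79 (SE 0.227). Ifngr1, the other receptor chain gene, had a log2 fold of -0.15 and Usf1 0.05, neither called. Ifng itself did not pass the filter, at 0.0921 CPM or less in every library. Leaving out any 1 control, or library 1 or 2 labelled knockout, ended the call of Socs1 (edgeR adjusted p = 0.0533 to 0.122). The call of Irf1 ended when library 2 labelled knockout was left out (edgeR adjusted p = 0.0535). Those of Jak1 and Jak2 ended when control 2, or library 1 or 2 labelled knockout, was left out, and for Jak2 also when control 3 was (edgeR adjusted p = 0.0502 to 0.101). With library-size scaling none of the list was called lower and 4 were called higher.

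Among 12 genes of invariant chain cleavage and class II trafficking, 2 were called lower and 2 higher, with a median log2 fold of -0.03. The shares over all genes tested were 18.8% lower and 18% higher. Ifi30, a thiol reductase that unfolds antigens in endosomes, fell by 0.65 (SE 0.106, edgeR adjusted p = 0.00396), with 46.7, 46.4 and 57.8 CPM in libraries labelled knockout against 80.9, 78.4 and 76.6 CPM in controls. Sppl2a, the protease that cuts the last invariant chain stub from the membrane, fell by 0.25 (SE 0.0759), and with library-size scaling its log2 fold was 0.01. The aspartyl protease gene Ctsd rose by 0.67 (SE 0.122) and the cysteine protease gene Ctsl by 0.56 (SE 0.178). Ctss, the main invariant chain protease of leukocytes, was at 1.65, 1.66 and 30.6 CPM in libraries labelled knockout, against 0.9999, 0.791 and 1.89 CPM in controls. Its high value was in the library with the highest leukocyte marker sum. Leaving out control 1 or 2, or library 1 or 2 labelled knockout, ended the call of Sppl2a (edgeR adjusted p = 0.0896 to 0.128). That of Ctsl ended when any 1 control, or library 1 or 2 labelled knockout, was left out (edgeR adjusted p = 0.0631 to 0.137).

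Costimulatory ligands, the second signal that T cells need beside class II, were mostly at low levels in both groups. In level, Icam1, Lgals9 and Tnfsf9 stood above the others of the list. Of 10 genes 8 were tested, 1 called higher and none lower, where 18% of all genes tested were called higher and 18.8% lower. The checkpoint ligand gene Cd274 rose by 0.56 (SE 0.175, edgeR adjusted p = 0.0393), with 5.32, 5.97 and 7.52 CPM in libraries labelled knockout against 3.60, 4.67 and 4.49 CPM in controls, and its call ended without any control or without library 2 or 3 labelled knockout (edgeR adjusted p = 0.0675 to 0.119). Cd80 was at 0.546 CPM or less in every library. Cd86 was at 0.0735, 0.0756 and 0.851 CPM in libraries labelled knockout, against 0.0175, 0.0296 and 0.115 CPM in controls. With the replicate number as a block 2 of the list were called higher, among them Cd86 (edgeR adjusted p = 0.0205), and Tnfsf9 lower. The adhesion ligand gene Icam1, at 395 to 477 CPM in libraries labelled knockout and 412 to 428 CPM in controls, was not called (log2 fold 0.08, SE 0.115). Cd40 at 1.38 CPM or less and Icosl at 2.28 CPM or less in every library were not called. Lgals9, at 61.1 to 62.0 CPM in libraries labelled knockout and 61.7 to 66.6 CPM in controls, was not called (log2 fold -0.07, SE 0.0752). Tnfsf9, at 18.0 to 25.9 CPM in libraries labelled knockout and 22.5 to 31.9 CPM in controls, was not called without the block (log2 fold -0.32, SE 0.181).

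Class I presentation genes, set beside class II, did not share the direction of the class II members. Of 17, 6 were called higher and 2 lower, where 18% of all genes tested were called higher and 18.8% lower. The median log2 fold of the list was 0.14. Among those called higher were H2-Q7, a nonclassical class I gene (log2 fold 1.51, SE 0.206), and Tap1. So was Calr, a chaperone of the endoplasmic reticulum that takes part in class I assembly (1.81, SE 0.261). H2-T23, which encodes the nonclassical molecule Qa-1, fell by 0.97 (SE 0.154) and Tapbp, the peptide loading factor tapasin, by 0.43 (SE 0.0884). The classical heavy chain genes H2-K1 and H2-D1 had log2 folds of -0.08 (SE 0.139) and 0.18 (SE 0.131), and the shared light chain B2m 0.02 (SE 0.157), none called. With 1 library left out, 3 to 5 of the list were called higher and 2 to 3 lower, and without both libraries numbered 3, 5 each way.

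Nlrc5 and Tapbp were singled out after their values were seen. Nlrc5, the coactivator that does for class I what CIITA does for class II, was at 1.24, 1.73 and 2.20 CPM in libraries labelled knockout, against 0.754, 1.11 and 0.689 CPM in controls. Its log2 fold was 1.02 (SE 0.296, edgeR adjusted p = 0.0315), opposite in sign to that of Ciita. Leaving out control 1, control 3, both libraries numbered 3, or 1 of libraries 2 and 3 labelled knockout ended the call, at edgeR adjusted p = 0.0518 to 0.0948.

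Over the 6 libraries the genes whose log2 level was most like the mean standardized level of the members were Gm26887, Dag1, Ifih1, Sesn3 and AC114575.1, with Pearson r of 0.9990 to 0.9996 among 13966 genes at a mean of 1 CPM or more. Of those genes 174 had an r above 0.99, so the order among them is not firm, and the libraries share their group difference. Dag1, the dystroglycan gene, was at 197, 202 and 319 CPM in libraries labelled knockout, against 458, 454 and 477 CPM in controls. After each group's mean was subtracted, the closest were Gzma, Fut8, Tiparp, Itih4 and Trp53inp2, with r of 0.9993 to 0.9999. Gzma, a granule protease gene of killer lymphocytes, was at 0.301, 0.286 and 6.02 CPM in libraries labelled knockout, against 0.456, 0.333 and 0.490 CPM in controls, high in library 3 labelled knockout alone. Among the members themselves r with their mean was 0.957 to 0.991 over levels, and 0.296 for H2-Oa. After each group's mean was subtracted, r of the members was 0.775 (H2-Oa) to 0.997 (Cd74). Each member is part of that mean, and the members were chosen with the group difference known, so nothing is read from these values.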

How the data were processed

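The authors deposited 1 table of raw counts per gene for 6 libraries, which were made with a NEBNext Ultra RNA kit and read from both ends, per the labels' protocols. Per the submitters' processing notes the build was mm10, and edgeR 3.7 was named. The sources used here do not give the aligner, the counting program or its strand setting. Genes with 2 counts outnumbered genes with 1 count 1.63 to 1.76 times in each library, so low counts may not stand for separate fragments. Genes that overlap on opposite strands cannot be told apart.

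The counts were fitted in edgeR 4.0.16 (R 4.3.3) by quasi-likelihood with robust dispersions, TMM scaling and a term for group alone, over the 18849 genes that filterByExpr kept, with Benjamini-Hochberg adjustment over them and a threshold of 0.05. Log2 folds are libraries labelled knockout over controls and each SE is that fold over the root of its F statistic. The script was tested on simulated data. Exon lengths and coordinates came from GENCODE M21 (GRCm38, the same build as mm10) and promoter windows from RefSeq. No protein sequences were used here. Alternatives were other scalings and filters, DESeq2 1.42.0, limma-voom (limma 3.58.1), a block for the replicate number, and fits with libraries left out.

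The members, gene lists and alternatives were chosen with earlier results of these data known. The text names all members, Hspa5, every gene of a related list with 10 or fewer tested, the 4 called genes of lowest adjusted p in longer lists, and by each of 2 correlations the 5 genes most like the members. Marker lists are given mainly by their sums, and 1 gene of a related list is not reported here. Nlrc5, Tapbp, Ctss, H2-K1, H2-D1, B2m, the leukocyte markers called under an alternative and the neighbours on chromosome 17 were named or described after their values were seen. Same-numbered libraries deviated together from their group means, with correlations over genes of 0.174, 0.147 and 0.281 for numbers 1, 2 and 3. No label says what a number stands for. All 3 exceed 0.1, but library 1 labelled knockout and control 2 did too, at 0.116. That level thus does not single out equal numbers, and whether the numbers pair the libraries is not settled. The main fit has no block, and the blocked result is given where it changes a call.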

Additional observations from a re-analysis of the deposited data

How the results depend on the processing

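The count of class II members called lower was 8 or 9 under the other scalings, filters, tools and the replicate block, and 6 to 9 with libraries left out; none was called higher in any of these, and DESeq2 and limma-voom called 9 lower. The log2 ratio of the summed class II level was -1.65, and -1.38 with library-size scaling, which moved the median of all genes from 0.02 to 0.27. With libraries left out it was -1.89 to -1.54. The call of H2-DMb2 ended with library-size scaling (adjusted p = 0.0613) and that of Ciita without a filter (adjusted p = 0.0576). Over all genes, 3391 were called higher and 3547 lower, against 6218 and 1343 with library-size scaling, and 1684 to 5355 and 1881 to 5226 with libraries left out.

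Counts of related lists moved with libraries left out and with other settings. Partners of CIITA called lower numbered 1 with upper-quartile factors, 0 with library-size scaling, 1 unfiltered, 4 with the replicate block and 0 to 5 with libraries left out. For cleavage and trafficking genes, 4 were higher with library-size scaling, 1 was lower with upper-quartile factors, with library-size scaling and unfiltered, and with libraries left out 1 to 4 were higher and 1 to 6 lower. Of the other class II region genes, BC051142 alone was called higher, 1 gene, with upper-quartile factors, library-size scaling, DESeq2, limma-voom and the 1 CPM filter (0 to 1 with libraries left out). For the interferon gamma route library-size scaling gave 4 higher and 0 lower, and leaving out libraries 1 to 3 and 1 to 5. Costimulatory genes called higher were 3 with library-size scaling and with DESeq2, 2 with the block (1 lower), and 0 to 3 with libraries left out (0 to 1 lower). Class I genes were 12 higher and 1 lower with library-size scaling, and 3 to 5 and 2 to 5 with libraries left out. Leukocyte markers called higher were 1 with DESeq2, 0 with limma-voom and unfiltered, and 5 with the block (2 lower), against 0 to 6 higher and 0 to 3 lower with libraries left out. AT2 markers called lower were 12 to 13.

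Directions that turned were those of H2-Oa (-0.07 without control 1, -0.33 without library 3 labelled knockout, -0.12 without both libraries numbered 3), of Rfxap (0.092), Nfyb (0.13), Sppl2a (0.0068), Ifngr1 (0.11) and Lgals9 (0.19, and 0.0059 with upper-quartile factors) under library-size scaling, and of Ptprc without library 3 labelled knockout (-0.42) and without both libraries numbered 3 (-0.10). With libraries left out the log2 fold of H2-Oa was -0.33 to 0.40 and that of Ptprc -0.42 to 2.03. The replicate block called Rfx5, Nfya, Cd86 and Tnfsf9 as well, ended that of C1qc and, outside the leukocyte markers, changed no other call of the genes named. The cause of these moves was not tested. The few counts of H2-Oa and H2-Eb2 limit what can be said of them.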
